A study of Mus musculus with 2 samples.

Results

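Notch signalling passes between neighbouring cells, and 10 of its genes were followed here in gastruloids, balls of cultured mouse embryonic stem cells that start to lay down a body axis. The genes were the ligands Dll1, Dll3 and Jag1, the receptors Notch1, Notch2 and Notch3, the DNA-binding effector Rbpj, and the Hes family genes Hes1, Hes5 and Hes6. They were taken by gene symbol from the 32285 genes in the features tables, and all 10 were found. Both groups were R1 embryonic stem cells, plated at about 300 per well in serum-free N2B27 medium. From day 2 they received CHIR at 3 µM for 12 hours, a compound that switches on Wnt signalling by blocking GSK3, and they were collected on day 2.5. One library was labelled wild type (the WT-labelled library) and the other Sp5 and Sp8 double knockout (the DKO-labelled library), genes that code for transcription factors downstream of Wnt. Whether the mutant line was 1 clone is not stated in the labels, and aggregates were pooled within each library.

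A ligand on one cell binds a Notch receptor on the next, and the receptor is then cut so that its intracellular part moves to the nucleus and joins RBPJ on DNA. Hes1 and Hes5 are direct targets that code for repressors of differentiation genes, while Hes6 codes for a relative that is known to counteract Hes1. In the early embryo Dll1 and Dll3 are known for their roles in presomitic mesoderm and in neurogenesis, and Hes5 is a standard marker of Notch activity in neural progenitors. Dll3 differs from Dll1 and Jag1 in that it does not activate receptors on neighbouring cells.

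Promoter windows are shown for 3 of the members that the results turn on. They are RefSeq windows on GRCm38.p6, read 5′ to 3′ from 250 bases before to 50 bases after a gene start. Capitals mark matches, on either strand, to the RBPJ letters TGGGAA in Hes5 and to the GC box GGGCGG, the kind of site that SP proteins bind, in Notch1. The Dll1 window printed has neither, nor does the other Dll1 window. The Jag1 window, not printed, has neither as well.
Hes5 (chr4:154960673-154960972, plus strand): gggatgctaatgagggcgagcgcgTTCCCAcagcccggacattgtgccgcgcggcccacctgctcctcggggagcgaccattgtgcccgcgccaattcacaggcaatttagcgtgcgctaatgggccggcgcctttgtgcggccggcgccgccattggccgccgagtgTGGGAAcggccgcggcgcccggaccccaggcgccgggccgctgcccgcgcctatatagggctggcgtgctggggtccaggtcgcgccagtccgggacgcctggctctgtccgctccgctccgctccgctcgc
Notch1 (chr2:26503773-26504072, minus strand): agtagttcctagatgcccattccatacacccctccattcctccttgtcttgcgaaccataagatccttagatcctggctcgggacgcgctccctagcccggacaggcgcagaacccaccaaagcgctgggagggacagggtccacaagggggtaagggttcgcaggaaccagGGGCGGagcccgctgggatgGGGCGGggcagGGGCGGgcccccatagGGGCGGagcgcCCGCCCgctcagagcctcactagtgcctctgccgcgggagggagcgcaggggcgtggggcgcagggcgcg
Dll1 (chr17:15376883-15377182, minus strand): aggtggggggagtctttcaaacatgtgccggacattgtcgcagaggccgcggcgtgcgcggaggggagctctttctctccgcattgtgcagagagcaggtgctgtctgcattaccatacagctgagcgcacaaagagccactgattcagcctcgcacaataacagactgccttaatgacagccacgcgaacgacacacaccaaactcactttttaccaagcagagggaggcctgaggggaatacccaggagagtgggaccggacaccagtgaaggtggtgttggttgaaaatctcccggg

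Windows were held for 9 of the 10 members, 12 windows in all. TGGGAA was present in 3 of these 12 and in 25.6% of all 32851 windows of the same length. The Hes5 window held 2 matches, whose leftmost letters lie at -226 and -82 from the gene start. The other 2 windows with a match belong to Rbpj and overlap. They share 1 match, at -65 from 1 start and -205 from the other. GGGCGG was present in 6 of the 12 windows and in 35.7% of all windows, with 5 matches for Notch1, 7 for Notch2 and 4 for Notch3. A further 3 sets of letters were searched on both strands. The TCF/LEF letters CTTTGA were found in 1 of the 12 windows, that of Jag1, against 16.0% of all windows. The HES letters CACGTG were found in 0 of the 12 against 7.15%, and CACGCG in 3 of the 12 against 9.27%. None of the 5 sets contains another, and GGGCGG and TGGGAA matches did not overlap in the printed windows. A match is a description of letters and not of binding.

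Cells were barcodes with at least 2500 UMIs and 1000 genes and at most 10% mitochondrial UMIs, where a UMI is a tag that counts each molecule once. This gave 8707 cells with 97157331 UMIs in the WT-labelled library and 10587 cells with 97644169 UMIs in the DKO-labelled library. Median depths were 10571 and 8637 UMIs per cell, and 27 cell barcodes occurred in both libraries. There was 1 library per genotype, so no difference below has a replicate check or a test. Intervals are exact 95% intervals that cover counting error only. Sp5 and Sp8 went against the labels: Sp5 was at 109.1 CPM (UMIs of a gene per 1000000 UMIs of the cells) in the WT-labelled library and at 478.7 in the one labelled double knockout, and Sp8 at 20.8 and 40.1. Each direction below is therefore one between labelled libraries, and none is given as an effect of losing these genes. A 3′ count can also come from an edited allele. Epiblast markers (Pou5f1, Dnmt3b, Fgf5, Utf1 and Otx2) summed to 1514 and 1651 CPM. Presomitic mesoderm markers summed to 31.7 and 33.8 CPM, with Msgn1 at 0 in both libraries, and neural markers to 23.9 and 19.8 CPM.

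Hes1, Rbpj and Hes6 were the most abundant members, while Dll1 and Hes5 were rare. Each molecule is counted once near its 3′ end, so CPM here is not divided by gene length. Hes1 stood highest, at 208 CPM in the WT-labelled library and 198 CPM in the DKO-labelled library. Rbpj came next at 68.0 and 72.0 CPM, followed by Hes6 at 40.0 and 39.5 CPM. Below these lay Notch3, Notch1, Dll3, Jag1 and Notch2, between 10.2 and 29.8 CPM in the WT-labelled library. Dll3 and Notch1 changed places between the libraries. Dll1 and Hes5 were lowest, and their intervals overlapped in the DKO-labelled library.

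Between the libraries 2 of the 8 members with a mean of at least 5 CPM differed by at least 0.32 on the log2 scale, the threshold used between libraries. They were Notch1 and Jag1, both lower in the DKO-labelled library. Of all 9386 genes at that level 4.42% were past this fold, 2.67% being lower and 1.75% higher. The median log2 ratio of the 8 members was -0.05, against -0.02 over all genes, so the group as a whole lay near the background. The members below 5 CPM, Dll1 and Hes5, were both more than 2-fold lower. For Hes5 this did not hold at a mitochondrial limit of 5%, where the log2 ratio was -0.96. Nor did it hold, at -0.77, with 5 marker classes given the same shares of UMIs in both libraries. These classes do not overlap and use the markers described below: T, Eomes without T, Irx3 without either, neural markers only, and none. Each was set at the mean of its shares in the libraries. Among the 3020 genes with a mean of 1 to 5 CPM, 0.563% were 2-fold lower.

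**Figure D1:**
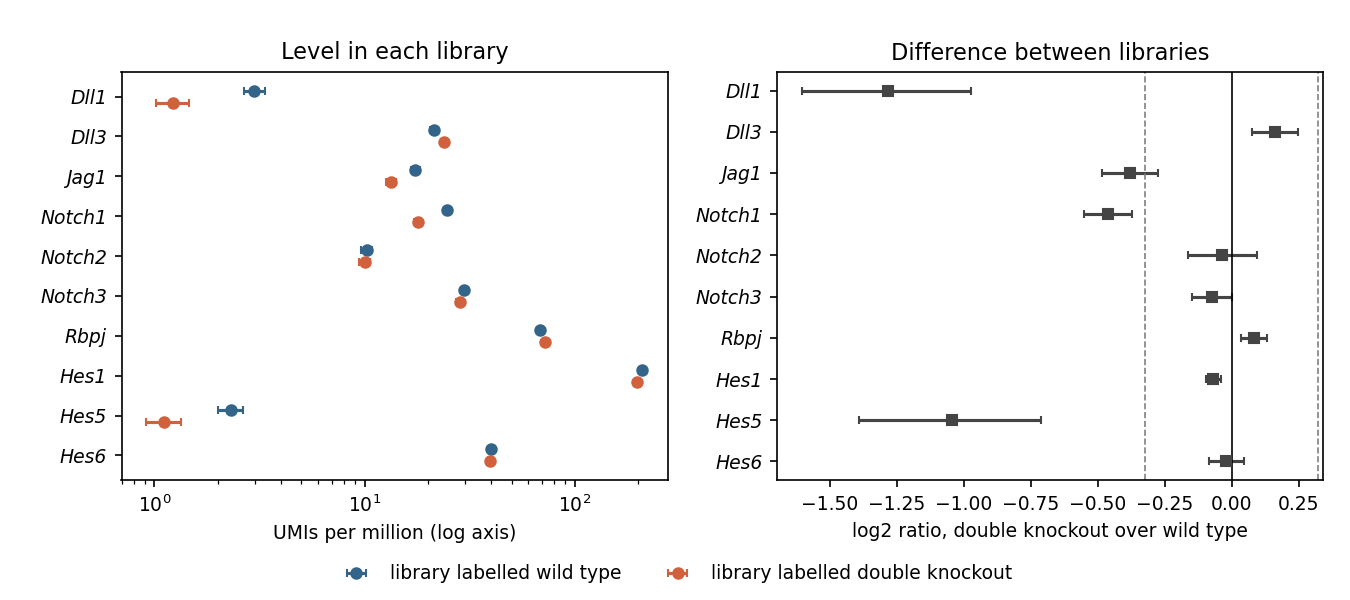
Levels of the 10 genes in both libraries (left, CPM on a log axis) and their log2 ratio, double knockout over wild type as labelled (right). Bars are exact 95% counting intervals and dashed lines mark the threshold of 0.32 on the log2 scale: Dll1 and Hes5 lie far to the left, Jag1 and Notch1 past the left line, and the other 6 between the lines.

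Among the ligands, Dll1 (chromosome 17, 15367354 to 15376872, minus strand, GENCODE M21 on GRCm38) stood at 3.00 CPM (2.66 to 3.36) in the WT-labelled library. In the other it stood at 1.23 CPM (1.02 to 1.47), from 291 and 120 UMIs. The log2 ratio was -1.28 (-1.60 to -0.97), the lowest of the 10 members. Jag1 (chromosome 2, 137081456 to 137116644, minus strand), a ligand with its own extracellular subfamily, was at 17.4 CPM (16.6 to 18.3) and 13.4 CPM (12.7 to 14.2). Its log2 ratio was -0.38 (-0.48 to -0.27). With the 5 marker classes held at the same shares in both libraries it was -0.27, no longer past the threshold. Dll3 (chromosome 7, 28293553 to 28302238, minus strand) was slightly higher, at 21.4 CPM (20.5 to 22.3) against 24.0 CPM (23.0 to 24.9), a log2 ratio of 0.16 (0.08 to 0.25). The ligands thus did not differ in one direction, and counting intervals of the libraries did not overlap for any of the 3.

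Among the receptors, only Notch1 was past the fold. Notch1 (chromosome 2, 26457903 to 26516663, minus strand) was at 24.7 CPM (23.8 to 25.7) in the WT-labelled library and at 18.0 CPM (17.1 to 18.8) in the DKO-labelled library, with a log2 ratio of -0.46 (-0.55 to -0.37). Notch2 was at 10.2 CPM (9.61 to 10.9) and 10.0 CPM (9.38 to 10.6), a log2 ratio of -0.04 (-0.16 to 0.09). Notch3 was at 29.8 CPM (28.8 to 30.9) and 28.4 CPM (27.3 to 29.4), a log2 ratio of -0.07 (-0.15 to 0.0022). For both, the intervals of the libraries overlapped, so no difference was detectable at this depth. Rbpj, through which all receptors act, had a log2 ratio of 0.08 (0.03 to 0.13). Antisense genes in the features tables overlap Notch1, Notch3, Rbpj and Hes5. The strand setting of the counting is not given in the sources used here, which makes these values less certain.

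Of the 3 Hes genes, only Hes5, a rare member, was much lower in the DKO-labelled library. Hes1 and Hes6 differed little between the libraries. The intervals of the libraries overlapped for Hes6 but not for Hes1, which was at 208 CPM (205 to 210) and 198 CPM (195 to 201). Hes5 (chromosome 4, 154960923 to 154962371, plus strand) was at 2.31 CPM (2.01 to 2.63) in the WT-labelled library and at 1.12 CPM (0.917 to 1.35) in the DKO-labelled library, from 224 and 109 UMIs. Its log2 ratio was -1.04 (-1.39 to -0.71). Hes1 (chromosome 16, 30064384 to 30067796, plus strand) had a log2 ratio of -0.07 (-0.10 to -0.04), a narrow interval because 20165 and 19319 UMIs were counted. Hes6 was at 40.0 CPM (38.8 to 41.3) and 39.5 CPM (38.3 to 40.8), a log2 ratio of -0.02 (-0.08 to 0.05). None of the 10 members lies on chromosome 6 or 11, whose share of UMIs was low in subsets of cells. Chromosome 11 was low in 17.8% of cells of the WT-labelled library and in 5.86% of the other. Without cells low on either chromosome the same 2 members, Notch1 and Jag1, were past the fold.

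Among genes with at least 5 CPM, the other genes of the pathway had a median close to that of all genes. The list held 50 genes, of which 33 had a mean of at least 5 CPM. In the DKO-labelled library 0 of these were higher by that threshold and 2 were lower, against 1.75% and 2.67% of all genes. Their median log2 ratio was 0.01, against -0.02 over all genes. The 2 were Maml1, a co-activator that joins the receptor and RBPJ, at -0.32 (-0.43 to -0.21), and Adam10, at -0.34 (-0.46 to -0.22). Adam10 codes for the protease that makes the first cut in the receptor after a ligand binds. Of the 5 most abundant, the co-regulators Hdac1, Snw1 and Kat2a had log2 ratios of -0.03, 0.04 and 0.13, the co-repressor Tle4 one of 0.22, and Psenen, a subunit of the protease that makes the second cut, one of 0.21. Below 5 CPM the lowest ratio was that of Hes3, a Hes gene of neural progenitors, at 2.33 and 0.49 CPM from 226 and 48 UMIs, or -2.23 (-2.72 to -1.79). Maml2 had a log2 ratio of -0.88 (-1.25 to -0.52) and Hey2, a Hes-related target, one of -0.75 (-1.44 to -0.11). Hes7, the presomitic oscillator gene, had 8 and 21 UMIs, or 1.33 (0.15 to 2.77). Bend6 had a log2 ratio of -0.34 (-0.69 to -0.0015). Of all genes with a mean of 1 to 5 CPM, 0.563% were 2-fold lower. The share past the smaller threshold below 5 CPM is not given here, so the other ratios at this level have no background beside them. Intervals that held 0 belonged to Dll4 (11 and 3 UMIs), Heyl (4 and 2), Neurog2 (13 and 7) and Neurl1b (53 and 42).

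Expression was next compared between single cells. Cells with at least 4000 UMIs were thinned to 4000 each, which left out 258 and 358 shallower cells. After thinning, Hes1 had a UMI in 51.8% (50.8 to 52.9) of the cells of the WT-labelled library and in 50.2% (49.3 to 51.2) in the DKO-labelled library. Without thinning these shares were 78.3% and 73.4%. Rbpj followed with 24.4% and 24.9%, and Hes6 with 14.6% and 14.6%. Dll1 had a UMI in 1.23% (1.01 to 1.49) and 0.538% (0.405 to 0.699) of thinned cells, and in 2.83% and 1.06% of unthinned ones. For Hes5 the shares were 0.829% (0.646 to 1.05) and 0.411% (0.296 to 0.555), and 1.90% and 0.860% without thinning. No cell type that should lack these genes was set as a background. Barcodes with 20 to 200 UMIs, which hold mostly free RNA, had medians of 39 and 28 UMIs. At the composition measured in them such a barcode would carry 0.00707 and 0.0043 UMIs of Hes1, and 0.000117 and 3.4e-05 of Dll1.

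Hes5 and Dll3 were the most unevenly spread members in the WT-labelled library. The variance of the thinned counts over their mean, which is 1 for pure counting noise, was 1.63 for Hes5 and 1.41 for Dll3, against 1.17 and 1.18 in the DKO-labelled library. Hes1 followed with 1.31 and 1.28. For Notch2 the ratio was 1.02 and 1.01 and for Rbpj 1.02 and 1.02, close to counting noise. The 10 cells richest in Hes5 held 24.6% of its UMIs in the WT-labelled library, 1 of them with 15. In the other library they held 25.7%, with at most 5 in a cell. The highest count of Dll3 in a cell was 18 and 9, and 14 and 6 cells had 5 or more.

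Cells were then grouped by UMIs of marker genes after thinning. T marks the primitive streak, where mesoderm and endoderm arise, Eomes marks early mesendoderm, and Irx3 is a homeobox gene of posterior epiblast and neural tissue. Neural-marker-positive cells had at least 2 UMIs over 10 neural genes (Sox1, Pax6, Pax3, Pou3f2, Pou3f3, Lhx5, Neurog2, Olig3, Nkx6-2 and Elavl3). Negative cells had 0, and the 643 and 661 cells with 1 entered neither group. In the WT-labelled library 12.0% of cells were T-positive, 24.1% Eomes-positive, 7.23% Irx3-positive and 1.02% (86 cells) neural-marker-positive. In the DKO-labelled library these were 16.2%, 43.8%, 3.21% and 0.811% (83 cells).

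Dll1 was lower in the DKO-labelled library in each of 5 groups of cells set by T, Eomes, Irx3 and the neural markers, with intervals below 0. In cells with none of the 4 markers Dll1 was at 3.01 and 1.57 CPM, a log2 ratio of -0.94 (-1.37 to -0.53). Cells with Irx3 but without T or Eomes had 5.82 and 1.49 CPM, from 33 and 3 UMIs, or -1.76 (-4.31 to -0.29). With Eomes and without T the ratio was -0.81 (-1.52 to -0.09). The 2 groups with T held few UMIs of Dll1. With T and without Eomes its ratio was -1.35 (-3.06 to -0.015), from 17 and 6 UMIs. With both it was -2.38 (-5.04 to -0.52), from 9 and 3 UMIs. For Hes5 the ratio was -0.65 (-1.09 to -0.22) without any marker and -1.85 (-4.39 to -0.38), from 35 and 3 UMIs, with Irx3 but without T or Eomes, a group that can hold neural-marker-positive cells. The 11 cells of the WT-labelled library with both Irx3 and neural markers had 10 UMIs of Hes5. Among Eomes cells without T it was -0.12 (-1.06 to 0.89), which is not a detectable difference.

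Notch1 was also lower in these 5 groups, though not in all others. Its log2 ratio was -0.36 (-0.48 to -0.24) without any marker, -0.44 (-0.62 to -0.25) with Eomes and without T, and -0.58 (-0.96 to -0.20) with both T and Eomes. With Irx3 but without T or Eomes the interval held 0, at -0.37 (-0.87 to 0.10). In neural-marker-positive cells without Irx3 it was 0.06 (-0.66 to 0.76), and for Dll1 -1.21 (-2.90 to 0.09), from 19 and 6 UMIs. Jag1 had a ratio of -0.43 (-0.58 to -0.29) without any marker, where it was at 19.0 and 14.1 CPM. In cells with Irx3 but without T or Eomes it was higher in the DKO-labelled library, at 20.3 and 32.8 CPM, a log2 ratio of 0.70 (0.24 to 1.14). That value rests on 115 and 66 UMIs in 508 and 224 cells. With Irx3 and with T or Eomes the log2 ratio of Jag1 was -0.56 (-1.73 to 0.48), an interval that held 0.

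**Figure D2:**
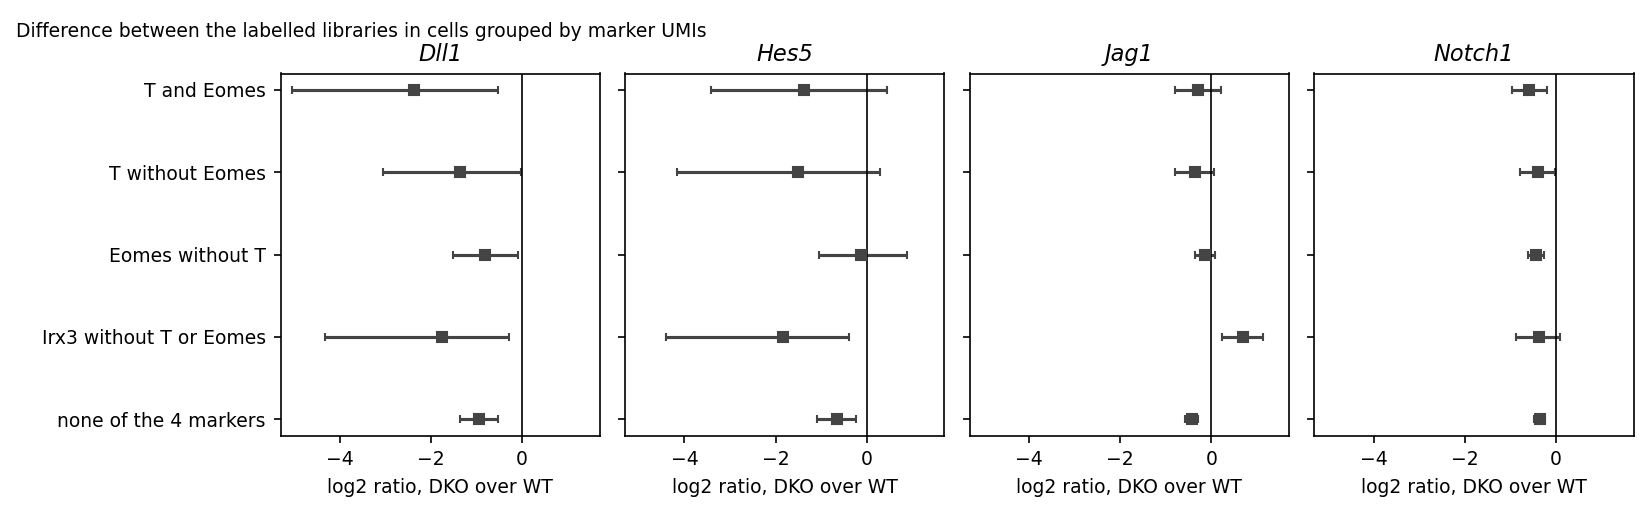
Log2 ratio, library labelled double knockout (DKO) over library labelled wild type (WT), of 4 members within cells grouped by marker UMIs, with exact 95% counting intervals. Dll1 and Notch1 lie left of 0 in all 5 groups, while Jag1 lies right of 0 in the cells with Irx3 but without T or Eomes, at 0.70.

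Within each library, no member with a mean of at least 5 CPM was 1.5-fold higher or lower in T-positive than in T-negative cells in both libraries. Of all genes at that level 0.117% were higher and 0.149% lower. The same held for Eomes (0.128% and 0.256% of all genes) and for Irx3 (0.32% and 0.416%). Smaller differences were shared. Jag1 was at 13.7 against 18.0 CPM in T-positive and T-negative cells of the WT-labelled library, and at 10.5 against 14.1 CPM in the other. Its log2 ratios were -0.39 (-0.63 to -0.16) and -0.42 (-0.66 to -0.19). Notch1 showed log2 ratios of -0.32 (-0.51 to -0.13) and -0.34 (-0.55 to -0.15) for T. For Eomes, Jag1 had -0.48 (-0.66 to -0.31) and -0.30 (-0.46 to -0.13), and Notch1 -0.22 (-0.36 to -0.08) and -0.30 (-0.44 to -0.17). In T-positive cells of the DKO-labelled library Dll3 had a log2 ratio of 0.33 (0.18 to 0.48) and Notch2 one of 0.32 (0.08 to 0.55). The WT-labelled library had 0.15 (-0.04 to 0.33) for Dll3 and -0.25 (-0.55 to 0.04) for Notch2, whose intervals held 0. Hes1 was nearly even across T, at 215.7 against 206.6 CPM and 204.6 against 196.6 CPM.

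Dll1 and Hes5 were lower in Eomes-positive cells of both libraries. In Eomes-positive cells Dll1 was at 1.79 CPM against 3.40 CPM in the WT-labelled library, a log2 ratio of -0.91 (-1.42 to -0.45). In the DKO-labelled library it was at 0.871 against 1.55 CPM, or -0.82 (-1.43 to -0.26). Hes5 had log2 ratios of -1.53 (-2.25 to -0.93) and -1.02 (-1.69 to -0.42). Of genes with a mean of 1 to 5 CPM, 1.89% were 1.5-fold lower in Eomes-positive cells of both libraries. In T-positive cells Hes5 was also lower in both, at -0.76 (-1.60 to -0.08) and -1.25 (-2.58 to -0.30), where the background was 1.62%. For Dll1 the T-positive cells of the WT-labelled library had a log2 ratio of -0.52 (-1.18 to 0.04), whose interval held 0 and which was 0.12 with 1 more UMI of T needed. In the DKO-labelled library it was -1.24 (-2.48 to -0.33), from 9 UMIs. In Irx3-positive cells of the WT-labelled library, Dll1 was at 5.63 against 2.79 CPM, or 1.03 (0.49 to 1.51), and Hes5 at 5.19 against 2.07 CPM, or 1.34 (0.77 to 1.85). The DKO-labelled library had only 6 and 4 UMIs of these genes in Irx3-positive cells, and both intervals held 0. The log2 ratio of Dll1 was 0.82, and 3.05% of genes with a mean of 1 to 5 CPM were 1.5-fold higher in both libraries. There Jag1 was higher instead, at 26.0 against 13.1 CPM, a log2 ratio of 1.00 (0.64 to 1.32), against 0.21 (-0.06 to 0.45) in the WT-labelled library. The interaction was not tested.

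More members passed 1.5-fold in neural-marker-positive cells than in the other 3 groups, but the groups were set by unlike rules. T, Eomes and Irx3 cells needed any UMI of that gene, and neural-marker-positive cells at least 2 over 10 genes. With 1 more UMI needed, Notch1 was past the fold for T and Hes6 for Irx3. By the main rule these log2 ratios were below 0, at -0.32 and -0.34 for Notch1 and at -0.36 and -0.27 for Hes6. In both libraries 4 of the 8 members, Dll3, Jag1, Notch1 and Hes6, were 1.5-fold or more higher in neural-marker-positive cells. This compares with 4.84% of all genes, and none was lower in both libraries, against 2.47%. Dll3 was at 61.3 against 20.7 CPM in the WT-labelled library and at 82.3 against 23.6 CPM in the other, with log2 ratios of 1.58 (1.14 to 1.96) and 1.82 (1.38 to 2.20). Jag1 had log2 ratios of 1.43 (0.90 to 1.87) and 1.56 (0.88 to 2.11), Notch1 1.16 (0.69 to 1.57) and 1.52 (0.94 to 2.00), and Hes6 1.09 (0.72 to 1.42) and 0.77 (0.28 to 1.20). Dll1 was at 27.1 against 2.49 CPM, from 23 UMIs in the positive cells, and at 9.50 against 1.07 CPM, from 6 UMIs. Hes5 was at 27.1 against 1.71 CPM and, from 4 UMIs, at 6.33 against 1.03 CPM. At this low level 21.5% of genes with a mean of 1 to 5 CPM were 1.5-fold higher in both libraries. Hes1 was not higher, at 168.7 against 208.1 CPM and 199.5 against 199 CPM, or -0.30 (-0.55 to -0.07) and 0.01 (-0.26 to 0.26). Notch3 was lower in the WT-labelled library, at -0.82 (-1.74 to -0.12) from 14 UMIs. In the other library it was at -0.13 (-0.98 to 0.53). Notch2 and Rbpj had intervals that held 0.

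Those 86 and 83 cells held 847674 and 631560 UMIs, so their values are imprecise. When positivity was set on full counts, Dll3 and Jag1 were past the fold in both libraries, and Dll3 and Notch1 were when cells were thinned to 6000 UMIs. Hes6 was not past it either without the 8% of cells with the most UMIs or without Elavl3 among the markers, and 3 members were. Median depth was 9512 UMIs in the positive and 10760 in the negative cells of the WT-labelled library, and 7113 and 8820 in the other. Epiblast markers were lower in the positive cells, at 704.3 against 1537 CPM and 889.9 against 1667 CPM, and extraembryonic endoderm markers summed to 10.6 and 4.75 CPM. The label neural rests mainly on 3 genes. Sox1 had a thinned UMI in 47 and 31 of the positive cells, Elavl3 in 36 and 46, and Pou3f2 in 27 and 18. Only 6 and 7 cells had a thinned UMI of both Sox1 and Elavl3, so most cells with 1 of these 2 genes lacked the other.

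**Figure D3:**
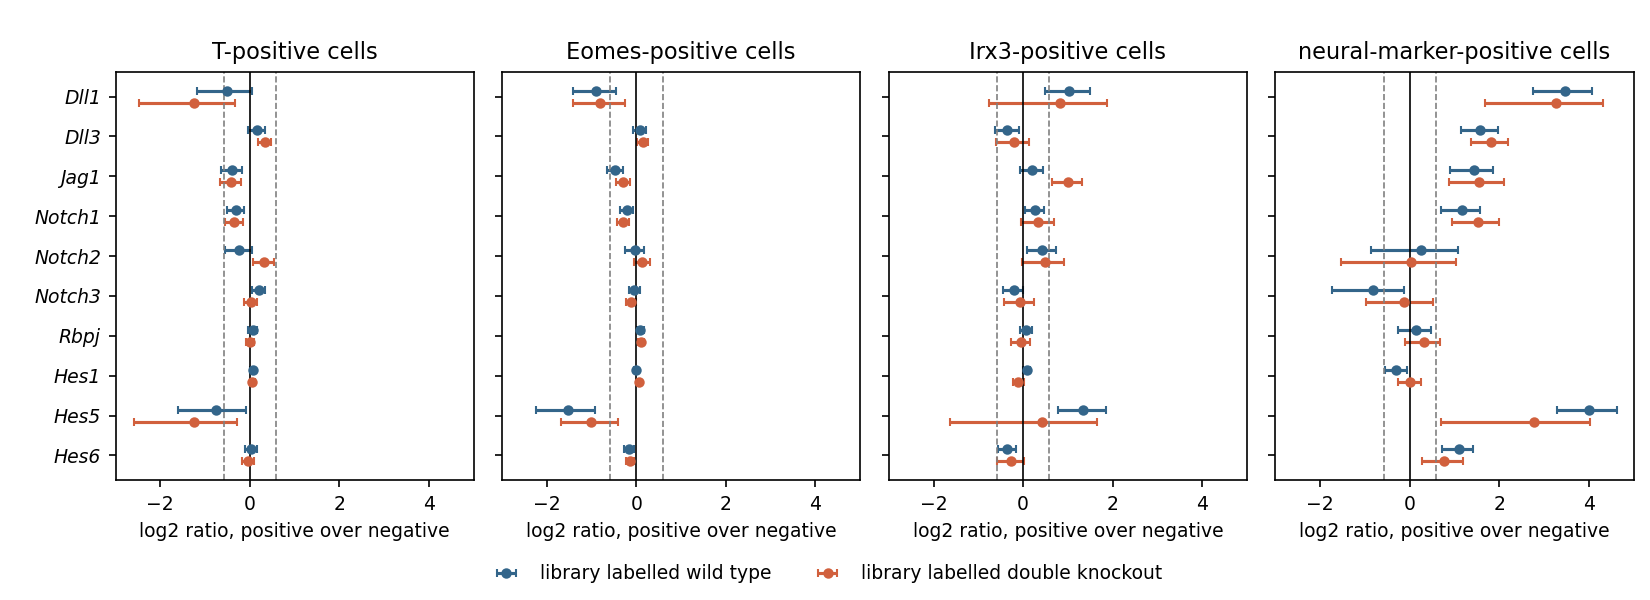
Log2 ratio of each member in marker-positive over marker-negative cells, by marker and library, with exact 95% counting intervals. Dashed lines mark 1.5-fold: the neural-marker panel has Dll1, Dll3, Jag1, Notch1, Hes5 and Hes6 right of the line in both libraries, while Dll1 and Hes5 lie left of 0 in the T and Eomes panels.

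Members were next compared by the neural markers Sox1 and Elavl3, a comparison added after the values above were seen. Cells with Pou3f2 were not compared. Sox1 is a transcription factor of neural progenitors and Elavl3 codes for a neuronal RNA-binding protein. In the WT-labelled library, 161 cells with a thinned Sox1 UMI had Hes5 at 28.2 CPM, from 47 UMIs, against 1.84 CPM in the remaining cells. That is a log2 ratio of 3.95 (3.44 to 4.41), or 15.5-fold. Dll1 was at 13.8 against 2.80 CPM there, a log2 ratio of 2.33 (1.62 to 2.92). Jag1 was at 36.0 against 17.2 CPM, or 1.08 (0.67 to 1.44). Notch1 was at 33.0 against 24.7 CPM, or 0.43 (0.0041 to 0.80). Dll3 was lower in the same cells, at 13.2 against 21.6 CPM, or -0.68 (-1.39 to -0.11), and so was Hes6, at -0.41 (-0.85 to -0.02).

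The 120 cells with Sox1 in the DKO-labelled library shared only part of this. Jag1 was again higher, at 28.8 against 13.3 CPM, or 1.14 (0.54 to 1.63). So was Notch1, at 0.65 (0.04 to 1.15). Notch3 was higher only here, at 0.62 (0.15 to 1.03), against -0.14 (-0.61 to 0.27) in the WT-labelled library. Hes5 was at 3.84 against 1.09 CPM from 4 UMIs, or 1.98 (-0.08 to 3.22), and Dll1 had 3 UMIs, or 1.45 (-1.07 to 2.82). The intervals of Dll3, at -0.22 (-0.95 to 0.36), and Hes6, at -0.39 (-0.97 to 0.10), held 0 there. The Hes5 intervals of the libraries did not overlap, but they cover counting error only and this difference was not tested. In the WT-labelled library 10 cells held 24.6% of all Hes5 UMIs. Among genes with a mean of 1 to 5 CPM, 11.5% were 1.5-fold higher in cells with Sox1 of both libraries, and 2.18% of genes with at least 5 CPM were. Cells with Elavl3, 379 and 439 in number, had more Dll3 than the remaining cells. It was at 34.6 against 20.9 CPM, or 0.73 (0.48 to 0.97), and at 30.8 against 23.7 CPM, or 0.38 (0.10 to 0.64). Jag1 was also higher with Elavl3 in the DKO-labelled library, at 0.44 (0.06 to 0.77), against 0.23 (-0.11 to 0.53) in the other. Hes5 had log2 ratios of 0.09 (-1.06 to 0.93) and 0.54 (-1.05 to 1.61) in these cells, which is not a detectable difference. The Hes6 intervals also held 0 there, at 0.14 (-0.09 to 0.34) and 0.19 (-0.04 to 0.40). For Elavl3 0.117% of genes with at least 5 CPM, and 3.15% of those with 1 to 5, were 1.5-fold higher in both libraries.

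**Figure D4:**
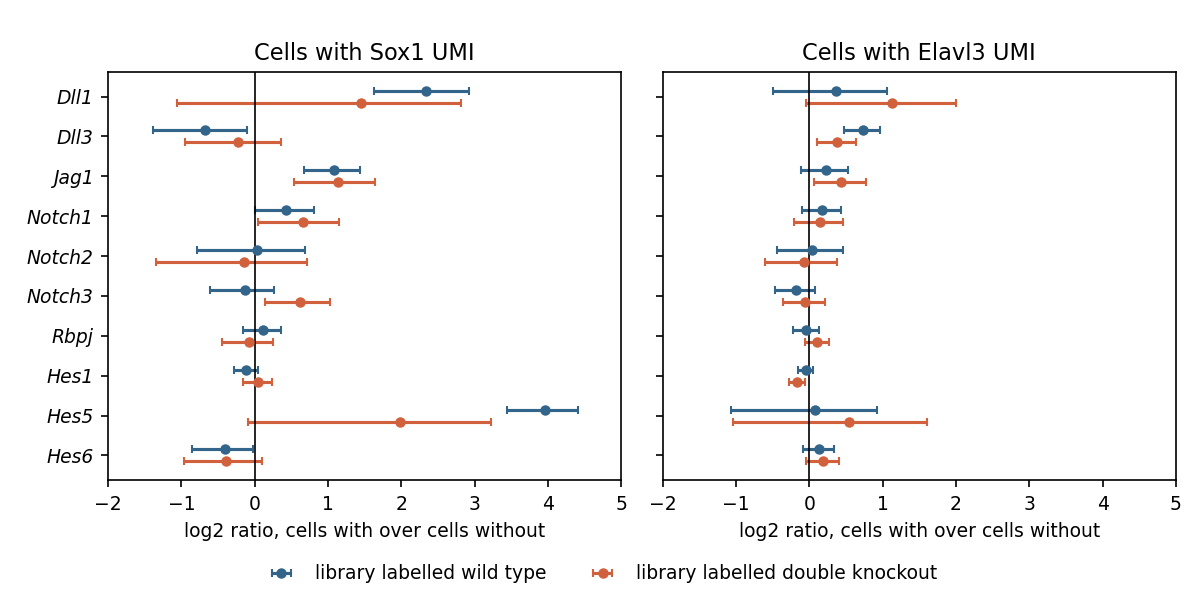
Log2 ratio of each member in cells with over cells without a thinned UMI of Sox1 (left) or Elavl3 (right), by library, with exact 95% counting intervals. Hes5, Dll1 and Jag1 lie far right with Sox1 in the WT-labelled library, at 3.95, 2.33 and 1.08, and Dll3 lies right of 0 with Elavl3 in both libraries, while with Sox1 its interval lies left of 0 in the WT-labelled library only.

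Finally, each member was compared between cells with and without a thinned UMI of another member, in 90 ordered pairs. These cells come from 1 library and are no replicates. The counting interval lay above 0 in both libraries for 7 pairs and below 0 for 0 pairs. Of all other genes at 5 CPM or more, the share above 0 in both libraries was 0.629% for cells with Dll1, 1.11% for Dll3, 1.05% for Jag1, 1.13% for Notch1, 0.256% for Notch2, 0.725% for Notch3, 0.991% for Rbpj, 1.04% for Hes1, 0.906% for Hes5 and 0.927% for Hes6. The shares below 0 were, in the same order, 0.426%, 0.874%, 0.639%, 0.746%, 0.17%, 0.586%, 0.682%, 1.21%, 0.724% and 0.906%. In 3 of the 7 pairs the level is that of Dll1 or Hes5, which lie below 5 CPM. Of genes with a mean of 1 to 5 CPM, 0.53% were above 0 in both libraries for cells with Dll3, 0.132% for Jag1 and 0.232% for Hes6. Dll3 and Hes6 were each moderately higher in cells with the other. In cells with Dll3, Hes6 was at 57.6 against 38.6 CPM in the WT-labelled library and at 48.8 against 38.5 CPM in the other. The log2 ratios were 0.58 (0.43 to 0.73) and 0.34 (0.19 to 0.49). In cells with Hes6, Dll3 was at 30.9 against 19.9 CPM and 28.0 against 23.4 CPM, or 0.64 (0.48 to 0.79) and 0.26 (0.10 to 0.42).  Dll1 was also higher with either gene, at 6.12 against 2.73 CPM and 2.82 against 1.09 CPM in cells with Dll3.

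Hes5 was higher in cells with Jag1. It was at 6.06 against 2.02 CPM in cells with Jag1 of the WT-labelled library, a log2 ratio of 1.60 (1.04 to 2.09). In the other library it was at 2.37 against 1.06 CPM, or 1.22 (0.12 to 2.07), from 11 UMIs. In cells with Dll3, Hes5 was not higher, with log2 ratios of -0.74 (-1.88 to 0.10) and -0.61 (-2.20 to 0.46). The remaining pairs of the 7 were small: Dll3 in cells with Notch1, at 0.42 and 0.25, and Notch3 in cells with Hes1, at 0.16 and 0.14. Hes1 was even between cells with and without Dll1, at 202.0 against 207.8 CPM and 197.2 against 198.0 CPM. Over all cells, no gene with a UMI in at least 1% of cells had a Pearson correlation of 0.15 or more in both libraries with any of the 10 members, on the log of thinned counts plus 1 over 8449 and 10229 cells.

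**Figure D5:**
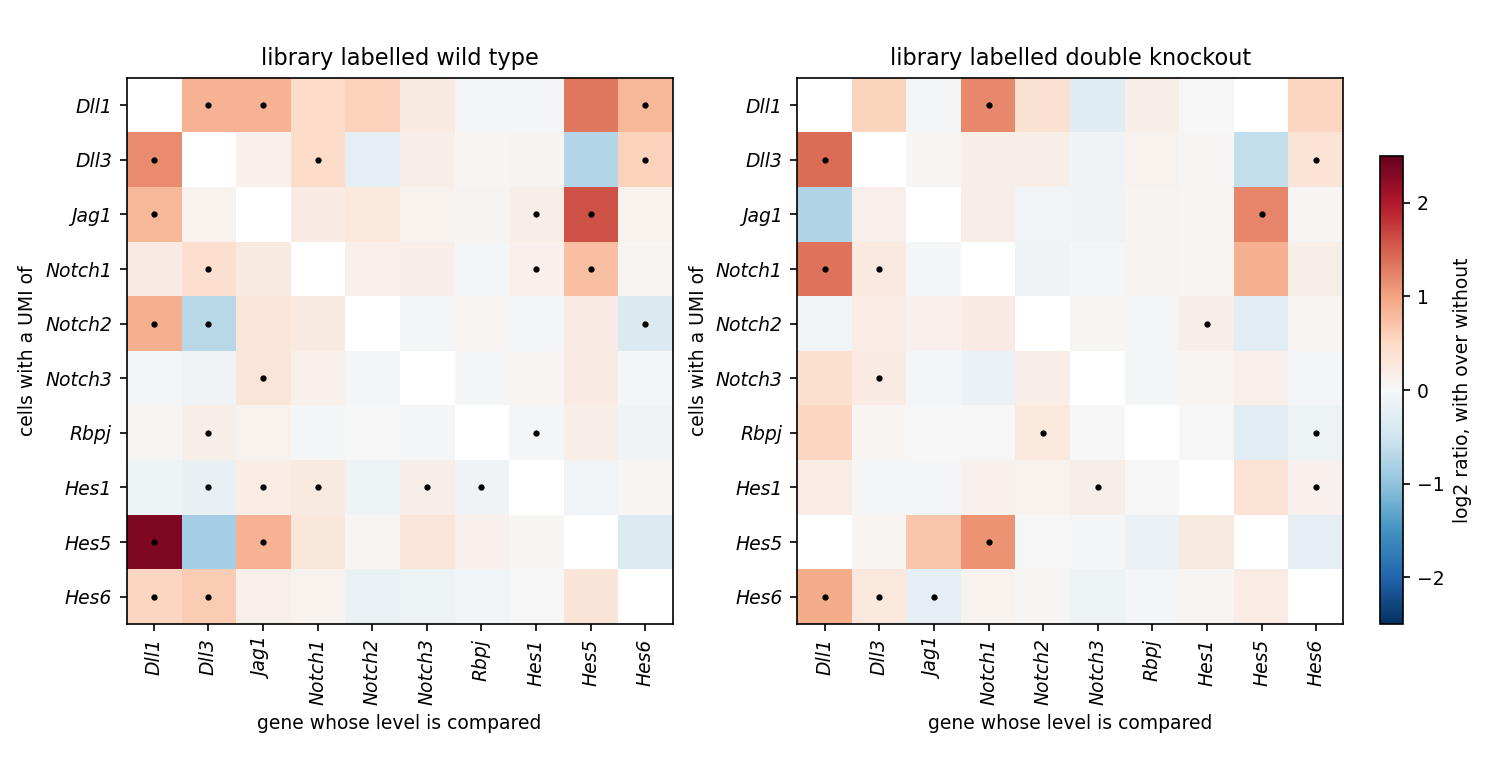
Log2 ratio of the level of each member (columns) in cells with over cells without a thinned UMI of another member (rows), in each library. Dots mark counting intervals that leave out 0, and the diagonal and pairs with 0 UMIs in the positive cells are blank: Dll3 with Hes6 and Jag1 with Hes5 carry dots in both panels.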

How the data were processed

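The authors deposited raw UMI counts per gene and barcode for 2 libraries made with 10x Genomics 3′ chemistry, with all 6794880 possible barcodes listed. Per the labels, Cell Ranger 8.0.1 was used with default parameters. The submitters' processing notes list STAR 2.7.9a, STARsolo, Seurat 5.1.0 and mm10, with no role for each. The labels state 9238 and 11190 cells, while 8772 and 10613 barcodes reached 2500 UMIs and 8707 and 10587 also passed the gene and mitochondrial limits. No doublet caller was run. Leaving out the 8% of cells with the most UMIs served as a check.

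UMIs were summed per library or cell group and scaled to the total (CPM). Log2 ratios used a pseudocount of 0.5 on the sums, with exact conditional intervals for ratios, Poisson intervals for levels and Clopper-Pearson intervals for shares. All cover counting error only. With 1 library per genotype no test was possible, so members were named by size: 0.32 on the log2 scale between libraries and 1.5-fold between cell groups, at a mean of at least 5 CPM. Thinning drew 4000 UMIs per cell without replacement. The pathway genes named are those past that threshold and the 5 most abundant. One item past it is not reported here. For each member the 3 genes with the highest correlation over cells would be named if r reached 0.15 in both libraries. Comparisons by Sox1 and Elavl3 fall outside this rule and were chosen after values were seen. The members and lists were chosen with earlier results of these data known. Of 32285 gene IDs, 32235 matched GENCODE M21. The calculations were tested on simulated data. Python 3.11.15, numpy, scipy and edgeR 4.0.16 (TMM factors only) were used.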

Additional observations from a re-analysis of the deposited data

Results flagged for a closer look

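Jag1 differed between the libraries in opposite directions in separate groups of cells. Its log2 ratio, DKO-labelled over WT-labelled library, was 0.70 (0.24 to 1.14) in cells with Irx3 but without T or Eomes, and -0.43 (-0.58 to -0.29) in cells with none of the 4 markers. The difference between these ratios was not tested, as there is 1 library per genotype. It was the only opposite pair found in the values looked at. These were 60 values of members in 6 cell groups, 40 comparisons of a member between marker-positive and marker-negative cells, and 90 pairs of members. An opposite pair needs both counting intervals to leave out 0. Cells with Irx3 and with T or Eomes were outside these 6 groups. There Jag1 was at -0.56 (-1.73 to 0.48). Its intervals also held 0 with both T and Eomes (-0.30), T without Eomes (-0.36) and Eomes without T (-0.14). So did that in neural-marker-positive cells without Irx3 (-0.11).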

How the results depend on the processing

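No paired analysis was possible because each group has 1 library. Between the libraries the count of 2 members past 0.32 on the log2 scale, Notch1 and Jag1, was the same under 8 alternatives. It was 1 (Notch1) with the 5 marker classes at the same shares in both libraries and 4, adding Dll1 and Hes5, with no minimum CPM. Without that minimum the median of the other pathway genes was -0.083. With TMM scaling the log2 ratio over all genes had a median of 0.0049. Of 90 values of single members between the libraries under alternatives, 86 stayed within the counting interval and 4 moved. Dll1 ranged from -1.37 to -1.09, Hes5 from -1.24 to -0.77, Notch1 from -0.49 to -0.39 and Jag1 from -0.48 to -0.27.

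The count of members past 1.5-fold in neural-marker-positive cells of both libraries, 4, was 2 when positivity came from the full counts and 2 when cells were thinned to 6000 UMIs. It was 3, without Hes6, when the 8% of cells with the most UMIs or Elavl3 as a marker was left out. With 1 more UMI needed for positive it was 1 for T (Notch1) and 1 for Irx3 (Hes6), from 0. With levels from thinned counts it was 1 for Irx3 (Notch2). With no minimum CPM it was 1 for T, 2 for Eomes and 1 for Irx3, from Dll1 and Hes5. Notch3 in neural-marker-positive cells of the WT-labelled library, at -0.82, changed sign to 0.012 by the full counts and to 0.28 without the 8% of cells with the most UMIs. The cause of these changes was not tested. Of the values of single members in marker classes, 493 stayed within the counting interval, 85 moved and 2 reversed. Values without the barcodes in both libraries and without Elavl3 among the neural markers were added after seeing the data. Depth limits Dll1 and Hes5 most, with 120 and 109 UMIs in the DKO-labelled library.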
